A study of Homo sapiens with 24 samples.

Results

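The 52 genes described here act in mitosis, the phase in which a cell enters division, attaches its chromosomes to a spindle, separates them and splits. They were chosen by name as the rows of the count table whose gene symbol equals one of the listed kinases of the G2 to M transition, kinetochore genes, spindle genes and cytokinesis genes. All 52 were present among the 35993 symbols of the table, all 52 passed the filter on low counts in every fit, and no library had a count of 0 for any of them. RNA was sequenced from bladder cancer lines J82 and RT-112, in 24 libraries that fall into 8 groups of 3 replicates. Each line was read as its parental cells and as 3 derived lines: CD44 Low, which stands for low expression of the receptor CD44, CD44 High, which stands for high CD44, and CD44v6, which stands for high expression of the v6 form. The labels give no drug, time or culture step and do not say how the derived lines were made or whether each is 1 clone, so a difference between groups is one between cell lines and its replicates measure the spread within a line.

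The genes of mitosis are mostly silent in G1 and rise through G2, so their RNA in a bulk culture is commonly read as a measure of how many cells are close to division. Cyclin-dependent kinase 1 with its B cyclins starts mitosis, the Aurora and Polo-like kinases build the spindle, the checkpoint holds separation until every kinetochore is attached, and the anaphase-promoting complex then marks securin and cyclin B for destruction. Much of the group is held down in resting cells and G1 by the DREAM complex. It is switched on later by the MuvB complex with B-MYB and FOXM1 at a promoter element called the CHR. Many of these promoters also hold a further element, the CCAAT box. In a bulk culture, fewer cells in division and less of these RNAs per dividing cell cannot be told apart.

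Levels are given as CPM (a gene's counts relative to its library's total, after scaling), and differences are log2 fold changes. The value after ± is a standard error (SE) derived from the fold change and its F-test. It rests on a spread estimated over all libraries of the fit, with 3 libraries a group. A gene was called at a Benjamini-Hochberg adjusted p under 0.05 over all genes tested, and "rose" and "fell" are used of called genes. Libraries held 16752825 to 24419670 counts. CD44 itself was 309, 274 and 254 CPM in J82 CD44 Low against 489, 397 and 448 in the parental cells, and 120, 151 and 152 against 310, 347 and 294 CPM in RT-112. It was called against the parental cells in 4 of 6 comparisons, the exceptions being RT-112 CD44 High (0.41 ± 0.15, adjusted p = 0.272) and RT-112 CD44v6 (0.46 ± 0.15, adjusted p = 0.163). The gene count sums all CD44 forms, so the v6 exon was not read. Epithelial and urothelial markers summed to 6473 to 14896 CPM in the 24 libraries, mostly from the keratins KRT7, KRT8, KRT18 and KRT19. In J82 parental cells EPCAM, CDH1 and GATA3 had means of 1.79, 2.54 and 0.23 CPM, against 330, 317 and 38.3 in RT-112 parental cells. The mesenchymal markers VIM, CDH2 and ZEB1 had means of 368, 288 and 81.6 CPM in J82 parental and 1.88, 6.98 and 1.02 in RT-112 parental cells. Haematopoietic markers summed to at most 1.67 CPM and endothelial markers to at most 4.19 CPM.

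Across the 52 genes the order of the groups was the same in both lines at its lower end. The median gene of the CD44 Low libraries lay −0.35, −0.55 and −0.23 from the parental mean (log2) in J82, and −0.31, −0.50 and −0.29 in RT-112. The CD44 High medians were 0.09, 0.05 and 0.17 in J82 and 0.07, 0.07 and 0.34 in RT-112. The CD44v6 medians were −0.18, −0.36 and −0.10 in J82, where replicate 2 lay within the range of CD44 Low and the others between CD44 Low and CD44 High, and 0.19, 0.23 and 0.08 in RT-112, within the range of the CD44 High libraries there.

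**Figure D1:**
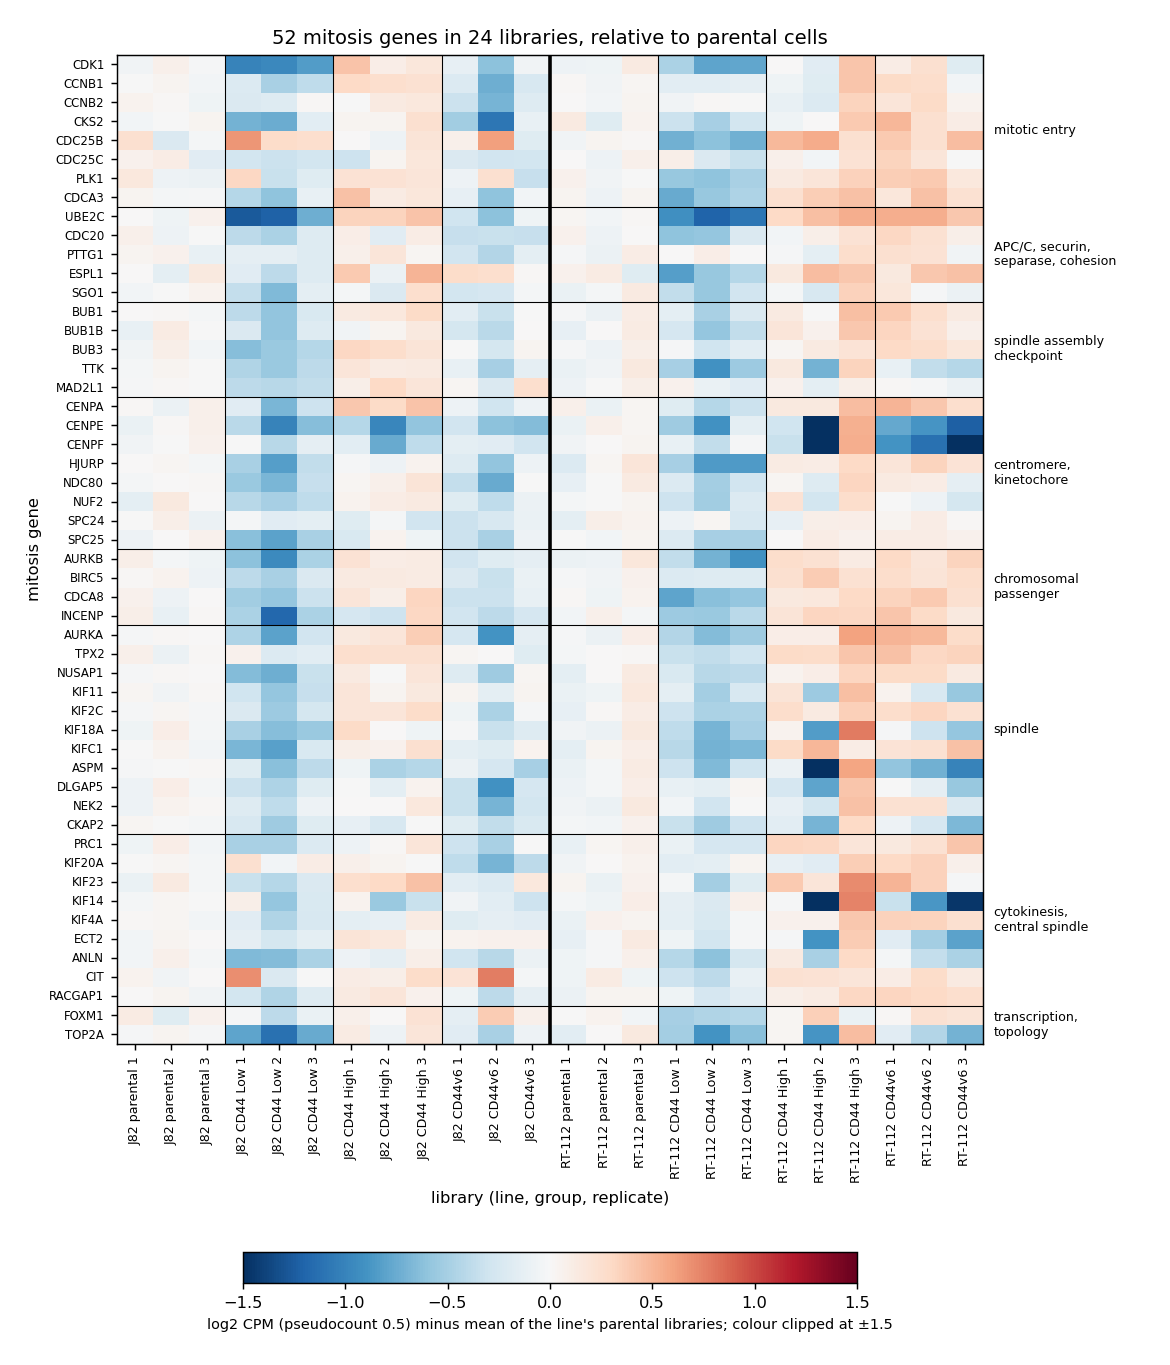
Level of each of the 52 mitosis genes (rows, by role) in each of the 24 libraries (columns), as log2 CPM minus the mean of the 3 parental libraries of the same line; blue is lower and red is higher, with colours ending at ±1.5. The CD44 Low columns are mostly blue in both lines, and CENPE, CENPF, ASPM and KIF14 are dark blue in RT-112 CD44 High replicate 2 and blue of varied depth in the RT-112 CD44v6 libraries.

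The comparison of CD44 High with CD44 Low asks how cells labelled high and low for CD44 differ in these genes. In J82, 32 of the 52 rose in CD44 High and none fell, against 8.83% of the 15951 genes tested that rose. The same number, 32, rose in RT-112 and none fell, where 9.01% of the 15645 genes tested rose. The median difference of the 52 was 0.53 in J82 and 0.51 in RT-112, beside −0.02 and 0.02 over all genes tested. 24 genes rose in both lines, 8 in J82 alone by the threshold (ANLN, CCNB1, ECT2, KIF11, KIF18A, MAD2L1, TOP2A and TTK) and 8 in RT-112 alone (BUB1B, CDC25B, CIT, CKS2, FOXM1, KIF4A, PLK1 and SGO1). 12 were called in neither line: ASPM, CCNB2, CDC25C, CENPE, CENPF, CKAP2, DLGAP5, KIF14, KIF20A, NEK2, PTTG1 and SPC24. Called in every fit that left out 1 library were 23 of the 32 in J82 and 25 of the 32 in RT-112. The exceptions were CDCA3, CDC20, ESPL1, HJURP, NDC80, INCENP, TPX2, PRC1 and ECT2 in J82, and CKS2, SGO1, BUB1, BUB3, NDC80, NUF2 and KIF4A in RT-112. The 3 CD44 High libraries did not overlap the 3 CD44 Low libraries, on the higher side, for 39 genes in J82 (17.4% of all genes) and 31 in RT-112 (13.9%).

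Set against the parental cells, 18 of 52 fell in CD44 Low in each line and none rose, against 3.08% of all genes that fell in J82 and 1.87% in RT-112. The median gene differed by −0.38 in J82 and −0.39 in RT-112. 8 genes fell in both lines: UBE2C, CDK1, AURKB, KIFC1, HJURP, CDCA8, SPC25 and NUSAP1. These counts depended on the libraries used. In J82, 6 genes fell without CD44 Low replicate 2, 10 without CD44 Low replicate 1 and 7 to 9 without 1 of the parental libraries. In RT-112, 7 fell without CD44 Low replicate 2 and 9 to 11 without 1 of the parental libraries. Called in every such fit were CDK1, UBE2C, BUB3, AURKB, ANLN and TOP2A in J82, and CDC25B, PLK1, CDCA3, UBE2C, HJURP, CDCA8 and INCENP in RT-112. CD44 High and the parental cells did not separate by this test. No member was called in either line with edgeR, where 2.94% of all genes were called in J82 and 0.511% in RT-112. In edgeR 8 members in J82 and 16 in RT-112 had an unadjusted p under 0.05. The share of all genes under that unadjusted limit was not computed. DESeq2 called 1 and 4 members (6.8% and 1.87% of all genes). The difference was positive for 39 of 52 in J82 and 44 of 52 in RT-112. Its median was 0.10 and 0.11, beside 0.003 over all genes in each line. The comparisons against CD44 Low share the CD44 Low libraries, so they are not independent of each other.

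**Figure D2:**
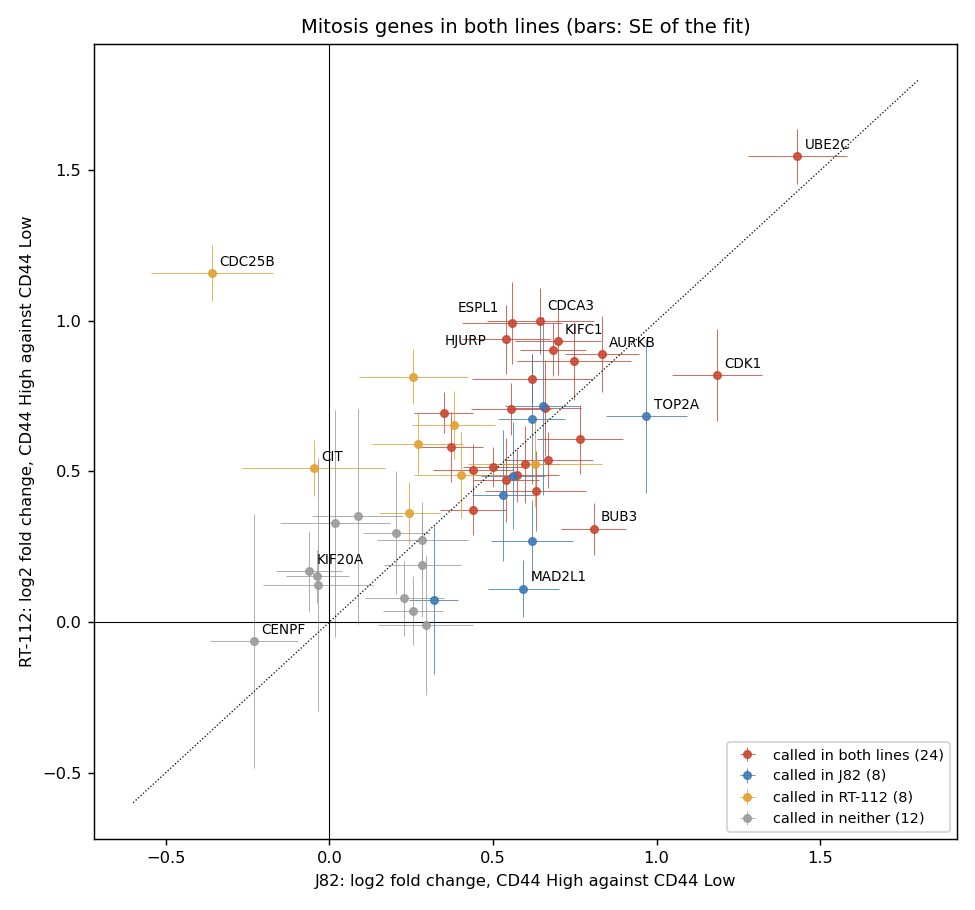
Log2 fold change of CD44 High against CD44 Low in J82 (horizontal axis) and RT-112 (vertical axis) for each of the 52 genes, with SE bars, marked by the lines in which the gene was called. UBE2C lies farthest up and right at 1.43 and 1.55, and CDC25B lies at −0.36 in J82 and 1.16 in RT-112.

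The promoters of the 52 genes were searched for the elements named above. RefSeq promoter windows (GRCh38.p14, 250 bases before to 50 after the start) were found by symbol for 44 of the 52, the others being UBE2C, BUB3, TTK, BIRC5, AURKA, TPX2, RACGAP1 and FOXM1. The CHR was searched as TTTGAA or TTCGAA and the CCAAT box as CCAAT, each on both strands, and the motifs may share bases. A CHR stood in 33 of the 44 windows (75.0%), against 16.62% of all 27305 windows, and within 50 bases of the start in 27 (61.36%, against 5.05%). A CCAAT box stood in 35 (79.55%, against 35.7%), and both in 29 (65.91%, against 6.581%). Of the 18 windows of genes that rose in CD44 High in both lines 16 held a CHR, AURKB and KIF2C being the exceptions, and of the other 26 windows 17 did. A match is a description of letters, not of a bound site. A window without a match does not show that the gene lacks the element. The members were chosen by name as mitosis genes, a class in which these elements are common. Their excess over all windows describes that choice, and the part of the elements in the CD44 differences was not tested.

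The 150 bases before the start follow, 5′ to 3′ on the gene's strand with CHR and CCAAT letters in capitals, for 6 genes. CDCA8, INCENP, CENPA and KIF23 are examples, picked after the search, of genes that rose in CD44 High in both lines and hold a CHR. AURKB rose in both lines with no CHR match in its window, and CDC25B differed between the lines. CDCA8 (chr1:37692366-37692515, + strand) has its CHR at −23, counted back from the start, sharing a base with a CCAAT box read on the other strand at −18. INCENP (chr11:62123861-62124010, + strand) has its CHR at −10, and CENPA (chr2:26785906-26786055, + strand) has it at −18. KIF23 (chr15:69414199-69414348, + strand) has it at −55, beside a CCAAT box at −64. AURKB (chr17:8210226-8210375, − strand) has no CHR match in its window. The capitals that open its stretch are the end of a CCAAT box, read on the other strand, that begins before it. CDC25B (chr20:3786801-3786950, + strand) has neither element in the stretch shown.
CDCA8: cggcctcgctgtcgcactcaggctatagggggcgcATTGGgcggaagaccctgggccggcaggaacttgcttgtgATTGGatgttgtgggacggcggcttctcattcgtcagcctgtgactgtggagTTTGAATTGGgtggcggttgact
INCENP: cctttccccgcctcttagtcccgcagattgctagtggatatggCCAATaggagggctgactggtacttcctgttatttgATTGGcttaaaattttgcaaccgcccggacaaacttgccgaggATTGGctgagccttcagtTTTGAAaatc
CENPA: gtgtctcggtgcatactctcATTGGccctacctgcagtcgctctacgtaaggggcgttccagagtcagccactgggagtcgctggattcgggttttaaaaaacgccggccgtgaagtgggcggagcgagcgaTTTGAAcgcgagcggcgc
KIF23: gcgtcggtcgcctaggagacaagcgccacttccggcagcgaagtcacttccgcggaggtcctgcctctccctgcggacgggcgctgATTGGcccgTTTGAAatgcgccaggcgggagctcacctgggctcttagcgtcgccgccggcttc
AURKB: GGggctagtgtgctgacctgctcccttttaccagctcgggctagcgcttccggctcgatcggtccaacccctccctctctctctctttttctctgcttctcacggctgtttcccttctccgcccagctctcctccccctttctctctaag
CDC25B: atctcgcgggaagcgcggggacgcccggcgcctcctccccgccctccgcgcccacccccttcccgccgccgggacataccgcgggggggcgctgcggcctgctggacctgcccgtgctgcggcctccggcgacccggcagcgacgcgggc

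Among the genes of mitotic entry, 3 of 8 rose in CD44 High against CD44 Low in J82 and 5 of 8 in RT-112. CDK1, the kinase that drives entry into mitosis, read 86.8, 95.0 and 88.9 CPM in parental, 44.8, 46.1 and 50.2 in CD44 Low and 121, 96.9 and 102 in CD44 High libraries of J82. RT-112 held CDK1 at 176, 178 and 203 CPM in parental, 133, 107 and 108 in CD44 Low and 186, 164 and 248 in CD44 High. CD44 Low was below the parental and CD44 High groups in each line without overlap. CDK1 rose in CD44 High in J82 by 1.19 ± 0.14 (adjusted p = 9.14e-05) and in RT-112 by 0.82 ± 0.15 (adjusted p = 0.00399), and fell in CD44 Low against parental cells by 0.94 and 0.71. CDCA3, an adaptor in the breakdown of the kinase WEE1, was at 24.7, 23.5 and 23.6 CPM in parental, 17.6, 15.5 and 22.0 in CD44 Low and 32.6, 26.1 and 27.0 in CD44 High in J82. CDCA3 in RT-112 was at 26.1, 23.9 and 26.0 CPM in parental, 14.8, 16.9 and 18.2 in CD44 Low and 30.04, 32.8 and 34.5 in CD44 High. It rose by 0.64 ± 0.16 and 0.999 ± 0.11 in CD44 High against CD44 Low. PLK1, the Polo-like kinase, did so in RT-112 (0.82 ± 0.09, adjusted p = 0.000185), with 81.1, 74.7 and 77.3 CPM in parental, 52.3, 50.9 and 55.4 in CD44 Low and 85.2, 88.3 and 99.0 in CD44 High. In J82 PLK1 overlapped between the groups, with 96.8, 81.6 and 81.6 CPM in parental, 107, 68.3 and 76.1 in CD44 Low and 101, 101 and 98.2 in CD44 High, and was not called (0.26 ± 0.17).

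The B cyclins split. CCNB1, the main partner of CDK1, rose in J82 (0.62 ± 0.13) and was 0.27 ± 0.13 in RT-112 (adjusted p = 0.193), and CCNB2 was 0.23 ± 0.12 and 0.08 ± 0.12, called in neither. CKS2, a small subunit of CDK complexes, rose in RT-112 (0.52 ± 0.14) and missed the threshold in J82 at a like size (0.63 ± 0.20, adjusted p = 0.0541). Its J82 values were 188, 192 and 198 CPM in parental, 118, 115 and 172 in CD44 Low and 198, 199 and 228 in CD44 High and its RT-112 values 98.1, 78.7 and 92.3 CPM in parental, 71.5, 63.2 and 73.8 in CD44 Low and 85.2, 89.5 and 118 in CD44 High. CD44 Low lay below CD44 High in both lines without overlap. CDC25C, a phosphatase that activates CDK1, was at 0.28 and 0.27, called in neither.

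CDC25B, the phosphatase that starts CDK1 activation, was the member that differed most between the lines. J82 held 131, 95.7 and 109 CPM in parental, 175, 135 and 132 in CD44 Low and 111, 105 and 127 in CD44 High, so CD44 Low was the highest of these groups there. RT-112 held 54.7, 58.5 and 57.4 CPM in parental, 34.3, 36.8 and 34.2 in CD44 Low and 79.6, 83.5 and 67.0 in CD44 High, with CD44 Low the lowest. The difference of CD44 High from CD44 Low stood at −0.36 ± 0.19 for J82 (adjusted p = 0.217) and at 1.16 ± 0.09 for RT-112 (adjusted p = 3.13e-05). The test of J82 minus RT-112 gave −1.49 ± 0.22 (adjusted p = 0.000169), among 10.7% of the 17438 genes tested over both lines that were called. For CD44 Low against parental cells the test of the difference gave 1.09 ± 0.22 (adjusted p = 0.0156, 1.06% of genes called), and this call was lost without J82 parental replicate 3 (adjusted p up to 0.0514). CDC25B was the only one of the 52 called in the latter test.

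Among the genes of the anaphase-promoting complex, securin, separase and cohesion protection, 3 of 5 rose in CD44 High against CD44 Low in J82 and 4 of 5 in RT-112. UBE2C, the E2 enzyme that passes ubiquitin to substrates of the complex, had the largest change of the 52 in both lines. It was at 129, 122 and 134 CPM in parental, 52.99, 54.9 and 76.9 in CD44 Low and 162, 161 and 173 in CD44 High libraries of J82. In RT-112 UBE2C was at 120.0, 114 and 119 CPM in parental, 61.9, 50.9 and 55.2 in CD44 Low and 146, 162 and 172 in CD44 High. CD44 Low lay below the parental and CD44 High groups, and CD44 High above the parental cells, with no overlap in either line. UBE2C rose in CD44 High against CD44 Low by 1.43 ± 0.15 (adjusted p = 4.39e-05) and 1.55 ± 0.09 (adjusted p = 2.48e-06), and fell in CD44 Low against parental cells by 1.06 and 1.11. The annotation names 4 UBE2C pseudogenes, and reads could be split between them and UBE2C.

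CDC20, the activator of the complex in mitosis, rose in J82 by 0.37 ± 0.10 and in RT-112 by 0.58 ± 0.12. It read 119.8, 107 and 113 CPM in parental, 86.5, 81.7 and 99.3 in CD44 Low and 121, 101 and 122 in CD44 High in J82 and 104, 94.6 and 99.9 CPM in parental, 65.2, 66.6 and 85.7 in CD44 Low and 96.8, 106 and 115 in CD44 High in RT-112. In J82 CD44 High replicate 2 (101 CPM) lay only just above the highest CD44 Low library (99.3 CPM). ESPL1, the separase that cuts cohesin, rose by 0.56 ± 0.15 and 0.99 ± 0.14. SGO1, which protects cohesin at the centromere, rose in RT-112 (0.49 ± 0.14) and was 0.40 ± 0.14 in J82 (adjusted p = 0.0767). PTTG1, the securin that holds separase in check, was called in neither line (0.26 ± 0.09 and 0.04 ± 0.11).

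Of the spindle assembly checkpoint genes, 4 of 5 rose in J82 and 3 of 5 in RT-112. BUB3, which brings BUB1 and BUB1B to kinetochores, read 100.2, 111 and 101 CPM in parental, 66.6, 70.4 and 77.2 in CD44 Low and 129, 125 and 119 in CD44 High in J82. In RT-112 BUB3 read 139, 133 and 149 CPM in parental, 139, 114 and 126 in CD44 Low and 143, 154 and 162 in CD44 High. CD44 Low and CD44 High did not overlap in either line. It rose by 0.81 ± 0.10 and 0.31 ± 0.09, and the test of the difference between lines gave 0.53 ± 0.13 (adjusted p = 0.0119). MAD2L1, which binds and restrains CDC20, was at 84.7, 86.4 and 85.3 CPM in parental, 64.8, 64.0 and 66.2 in CD44 Low and 90.9, 105 and 96.7 in CD44 High in J82 and at 69.1, 72.6 and 77.7 CPM in parental, 76.5, 68.0 and 64.8 in CD44 Low and 76.7, 66.1 and 77.8 in CD44 High in RT-112. It rose in J82 alone by the threshold (0.59 ± 0.11 against 0.11 ± 0.09), and the difference between lines was 0.51 ± 0.14 (adjusted p = 0.0244). That call was lost in 3 of 12 fits that left out a library, with an adjusted p up to 0.0774.

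BUB1B, the checkpoint kinase-like protein BUBR1, read 179, 211 and 194 CPM in parental, 167, 129 and 170.4 in CD44 Low and 188, 201 and 216 in CD44 High in J82 and 223, 243 and 265 CPM in parental, 204, 163 and 189 in CD44 Low and 276, 254 and 323 in CD44 High in RT-112. The CD44 High libraries were above CD44 Low in both lines, but only RT-112 passed the threshold (0.65 ± 0.11), with J82 at 0.38 ± 0.13 (adjusted p = 0.0625). BUB1B shares exons with a readthrough gene on its strand, BUB1B-PAK6. BUB1, the checkpoint kinase, rose in both (0.60 ± 0.11 and 0.52 ± 0.13). TTK, the kinase MPS1, rose in J82 (0.62 ± 0.10) and was 0.67 ± 0.22 in RT-112, where the 3 CD44 High libraries were at 181, 100.2 and 208 CPM.

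Of the centromere and kinetochore genes, 5 of 8 rose in each line. CENPA, the histone H3 variant that marks centromeres, read 29.1, 27.1 and 30.5 CPM in parental, 25.7, 17.7 and 23.1 in CD44 Low and 38.3, 35.3 and 39.0 in CD44 High in J82. CENPA in RT-112 read 42.6, 37.7 and 41.3 CPM in parental, 35.6, 30.1 and 32.4 in CD44 Low and 44.9, 44.9 and 55.9 in CD44 High. It rose by 0.76 ± 0.13 and 0.61 ± 0.11, with no overlap between CD44 Low and CD44 High. HJURP, the chaperone that loads CENPA, was at 198, 201 and 194 CPM in parental, 141, 112 and 153 in CD44 Low and 195, 188 and 205 in CD44 High in J82 and at 162, 191 and 212 CPM in parental, 133, 104 and 104 in CD44 Low and 204, 202 and 231 in CD44 High in RT-112. HJURP fell in CD44 Low against parental cells by 0.55 and 0.77 and rose in CD44 High against CD44 Low by 0.54 and 0.94.

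Of the NDC80 complex, which grips microtubules, 3 of 4 subunits rose in both lines. SPC25 read 34.9, 37.2 and 38.7 CPM in parental, 23.6, 20.9 and 26.2 in CD44 Low and 31.3, 38.3 and 35.2 in CD44 High in J82 and 50.7, 49.5 and 52.6 CPM in parental, 44.2, 35.9 and 36.2 in CD44 Low and 51.1, 55.0 and 53.2 in CD44 High in RT-112. CD44 Low was below the parental and CD44 High groups in each line without overlap, and SPC25 rose in CD44 High by 0.57 ± 0.13 and 0.49 ± 0.09. NDC80 rose by 0.63 and 0.44 and NUF2 by 0.54 and 0.47. SPC24 overlapped between CD44 Low and CD44 High and was at −0.04 ± 0.10 and 0.15 ± 0.09, called in neither line. CENPE, the kinetochore motor, and CENPF, a large kinetochore protein, were called in neither line and are described with the long genes.

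All 4 members of the chromosomal passenger complex rose in CD44 High against CD44 Low in both lines, and 3 of 4 fell in CD44 Low against parental cells in each line. AURKB, the kinase that corrects faulty attachments, read 76.9, 70.6 and 68.9 CPM in parental, 47.03, 36.8 and 51.7 in CD44 Low and 83.9, 77.7 and 78.9 in CD44 High in J82. AURKB in RT-112 read 31.7, 31.8 and 37.9 CPM in parental, 26.1, 20.5 and 17.8 in CD44 Low and 40.4, 39.5 and 36.7 in CD44 High. CD44 Low lay below the parental and CD44 High groups in each line. It rose by 0.83 ± 0.11 (adjusted p = 0.000312) and 0.89 ± 0.13 (adjusted p = 0.000923). CDCA8, the subunit borealin, was at 93.0, 83.8 and 89.3 CPM in parental, 61.6, 58.9 and 70.5 in CD44 Low and 100.3, 94.6 and 111 in CD44 High in J82. CDCA8 stood at 92.1, 87.1 and 94.9 CPM in parental, 52.5, 59.1 and 60.8 in CD44 Low and 101, 102 and 112 in CD44 High in RT-112. It rose by 0.68 ± 0.10 and 0.90 ± 0.09. INCENP, the scaffold of the complex, read 262, 229 and 250.3 CPM in parental, 178, 109 and 177 in CD44 Low and 207, 198 and 305 in CD44 High in J82, with replicate 2 the lowest CD44 Low library. RT-112 had INCENP at 242, 263 and 244 CPM in parental, 171, 169 and 188 in CD44 Low and 286, 311 and 308 in CD44 High. It rose by 0.62 ± 0.19 and 0.81 ± 0.08. BIRC5, survivin, rose by 0.50 and 0.52. CDCA8 and INCENP are genes whose promoter sequences are printed above, each with a CHR.

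**Figure D3:**
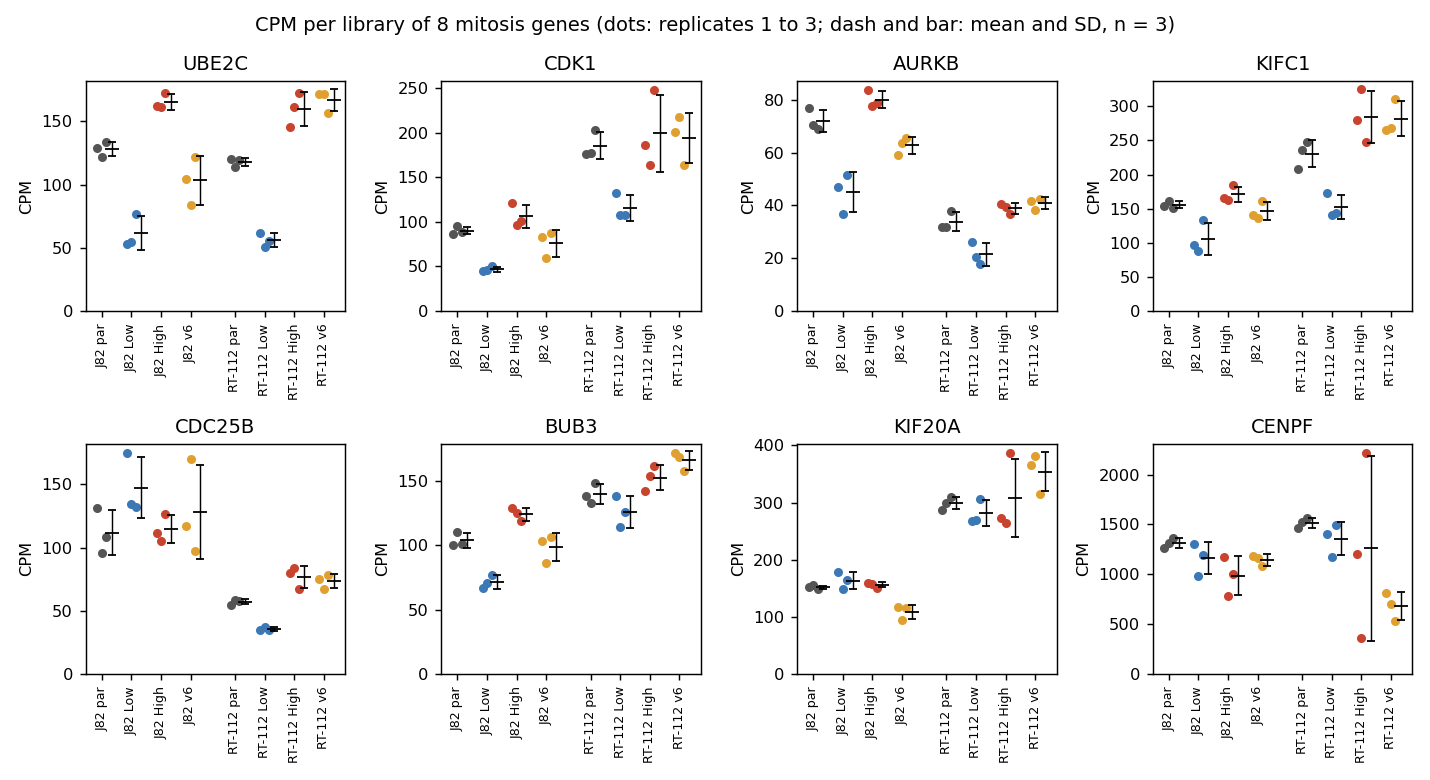
CPM in every library (points, coloured by group) with the mean and SD of each group (dash and bar, n = 3) for 8 of the genes described, in J82 and RT-112. UBE2C and CDK1 are lowest in CD44 Low in both lines, CDC25B is highest in CD44 Low in J82 and lowest there in RT-112, and CENPF spreads from 361 to 2216 in RT-112 CD44 High.

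Of the spindle genes, 7 of 11 rose in J82 and 5 of 11 in RT-112. AURKA, the kinase of spindle poles, read 176, 180.5 and 180.0 CPM in parental, 129.7, 103 and 146 in CD44 Low and 199, 204 and 231 in CD44 High in J82 and 233, 223 and 254 CPM in parental, 174, 151 and 163 in CD44 Low and 254, 254 and 360.3 in CD44 High in RT-112. It rose by 0.75 ± 0.17 and 0.87 ± 0.13, with no overlap between CD44 Low and CD44 High. The annotation names 2 AURKA pseudogenes. TPX2, which activates AURKA on the spindle, rose by 0.35 ± 0.09 and 0.70 ± 0.07, from 748, 620.5 and 642 to 857, 847 and 846 CPM in J82 and from 340.3, 333 and 348 to 524, 519 and 572 in RT-112, with the parental cells at 757, 675 and 724 and 422, 433 and 433. KIFC1, a motor that bundles spindle poles, was at 155, 161 and 151 CPM in parental, 96.2, 88.4 and 133 in CD44 Low and 165, 163 and 184 in CD44 High in J82. KIFC1 in RT-112 was at 208, 236 and 247 CPM in parental, 173, 140.3 and 144 in CD44 Low and 280.3, 325 and 248 in CD44 High. It rose by 0.70 ± 0.13 and 0.93 ± 0.11.

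NUSAP1, a microtubule bundling protein, read 409, 419 and 418 CPM in parental, 265, 250.3 and 330.1 in CD44 Low and 455, 412 and 472 in CD44 High in J82 and 409, 452 and 497 CPM in parental, 385, 339 and 344 in CD44 Low and 467, 484 and 564 in CD44 High in RT-112. CD44 Low was below the parental and CD44 High groups in both lines, without overlap, and NUSAP1 rose in CD44 High by 0.67 and 0.54. KIF2C, a microtubule-shortening motor, rose by 0.56 and 0.71. KIF11, the motor that pushes poles apart, was at 115, 109 and 114 CPM in parental, 91.1, 75.3 and 88.4 in CD44 Low and 127, 116 and 124 in CD44 High in J82 and 203, 208 and 242 CPM in parental, 196, 153 and 184 in CD44 Low and 248, 149 and 297 in CD44 High in RT-112. In J82 the CD44 Low libraries were below the others (0.53 ± 0.09), while in RT-112 CD44 High replicate 2 lay below all CD44 Low libraries and the difference was not called (0.42 ± 0.22). KIF18A, which shortens kinetochore microtubules, showed the same order (0.65 ± 0.11, called, and 0.72 ± 0.29, not called). DLGAP5, NEK2 and CKAP2 were called in neither line, at −0.01 to 0.30.

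Of the cytokinesis and central spindle genes, 5 of 9 rose in each line. KIF23, the motor of the centralspindlin complex, read 257, 304 and 270.3 CPM in parental, 219, 206 and 238 in CD44 Low and 329, 339 and 374 in CD44 High in J82. KIF23 in RT-112 read 358, 326 and 364 CPM in parental, 341, 245 and 308 in CD44 Low and 458, 397 and 570.2 in CD44 High. It rose by 0.66 ± 0.11 and 0.71 ± 0.16. Its partner RACGAP1 rose by 0.44 and 0.37, and PRC1, which bundles the central spindle, by 0.44 and 0.50. ECT2, the activator of the contractile ring, and ANLN, its scaffold, rose in J82 (0.32 and 0.56) and were 0.07 and 0.49 in RT-112, not called. CIT, citron kinase, and KIF4A, a chromosome-bound motor, rose in RT-112 (0.51 and 0.36) and were −0.05 and 0.24 in J82, not called. KIF20A, the motor that brings the passenger complex to the midzone, read 151, 155 and 149 CPM in parental, 178, 148 and 163 in CD44 Low and 159.6, 156 and 151 in CD44 High in J82 and 288, 299 and 309 CPM in parental, 267, 269 and 307 in CD44 Low and 273, 265 and 387 in CD44 High in RT-112. The groups overlapped, and the difference was −0.06 ± 0.10 and 0.17 ± 0.13.

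FOXM1, the transcription factor of the G2 and M genes, read 145, 117 and 139.6 CPM in parental, 132, 101 and 125 in CD44 Low and 141, 134 and 155 in CD44 High in J82 and 106, 109.9 and 103 CPM in parental, 75.2, 77.7 and 78.7 in CD44 Low and 108, 135 and 98.5 in CD44 High in RT-112. It rose in RT-112 (0.59 ± 0.10) and was 0.27 ± 0.14 in J82, not called. TOP2A, which untangles DNA before separation, was at 1039, 1083 and 1040.2 CPM in parental, 608, 484 and 621 in CD44 Low and 1147, 999 and 1195 in CD44 High in J82 and at 1175, 1309.9 and 1453 CPM in parental, 917, 703 and 846 in CD44 Low and 1336, 706 and 1809.6 in CD44 High in RT-112. TOP2A rose in J82 (0.97 ± 0.12, adjusted p = 0.000177). Its RT-112 difference of 0.68 ± 0.26 was not called (adjusted p = 0.0872), and there CD44 High replicate 2 was at the level of the lowest CD44 Low library.

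CD44v6 cells differed from CD44 Low in more of the genes in RT-112 than in J82. In RT-112, 29 of 52 rose and none fell, against 7.97% of all genes that rose. In J82 9 rose and 1, KIF20A, fell, against 6.18% and 3.4% of all genes. The median difference was 0.44 in RT-112 and 0.16 in J82. 5 genes rose in both lines: UBE2C, CDK1, AURKB, KIFC1 and BUB3. UBE2C read 104, 83.6 and 122 CPM in J82 CD44v6 and 172, 172 and 157 CPM in RT-112 CD44v6, differences from CD44 Low of 0.75 ± 0.15 and 1.57 ± 0.09. CDK1 read 82.6, 58.9 and 87.0 CPM and 201, 218 and 164 CPM (0.70 ± 0.14 and 0.74 ± 0.15). BUB3 read 103, 86.5 and 107 CPM and 172, 169 and 158 CPM, a rise of 0.48 and 0.39. AURKB read 59.1, 63.7 and 65.4 CPM and 41.7, 38.4 and 42.6 CPM, a rise of 0.48 and 0.92. KIFC1 read 140.4, 137 and 161 CPM and 265, 269 and 311 CPM, a rise of 0.47 and 0.88. The J82 count was 5 in all without CD44 Low replicate 2, 6 without CD44v6 replicate 1 or 3, and 3 when CD44v6 and CD44 Low were fitted alone.

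The difference between the lines in this contrast was itself tested, and 11 of 52 were lower in J82 than in RT-112 by it, against 2.96% of all genes, with none higher. KIF20A was at 178, 148 and 163 CPM in J82 CD44 Low and 116, 93.4 and 115 in J82 CD44v6, and at 267, 269 and 307 and 366, 381 and 315 in RT-112. It fell by 0.59 in J82 and was 0.32 in RT-112 (not called), a difference of −0.92 ± 0.17 (adjusted p = 0.00151). PLK1 was at 81.8, 102 and 67.7 CPM in J82 CD44v6 and at 100.4, 102 and 87.0 in RT-112 CD44v6. Its difference from CD44 Low was 0.00 in J82 and 0.86 in RT-112, where it rose (difference −0.87 ± 0.20, adjusted p = 0.00945). AURKA, CDCA3, CDC20, HJURP, CDCA8, TPX2 and KIF2C were likewise not called in J82 (0.01 to 0.28) and rose in RT-112 (0.66 to 0.99). The CD44v6 libraries read 149.9, 95.7 and 163 CPM for AURKA in J82 and 337, 330.1 and 285 in RT-112, and 172, 131 and 187 and 213, 237 and 216 for HJURP. They read 70.5, 70.9 and 82.1 and 116, 120.3 and 107 for CDCA8, 89.4, 89.7 and 89.4 and 123, 117 and 105 for CDC20, and 21.9, 15.5 and 23.1 and 28.5, 34.5 and 29.6 for CDCA3. J82 CD44v6 replicate 2 was the lowest of its group for AURKA, HJURP and CDCA3. In TPX2 the CD44v6 libraries were at 732, 718 and 635 CPM in J82 beside 748, 620.5 and 642 in CD44 Low, and at 585, 531 and 543 beside 340.3, 333 and 348 in RT-112. CDC25B read 117, 170.1 and 97.5 CPM in J82 CD44v6 and 74.7, 67.5 and 78.3 in RT-112 CD44v6, a difference between lines of −1.27 ± 0.22 (adjusted p = 0.00113). UBE2C rose in both lines and more in RT-112 (−0.83 ± 0.18, adjusted p = 0.00718). The count of 11 was 7 without J82 CD44 Low replicate 1, RT-112 CD44 Low replicate 1 or RT-112 CD44v6 replicate 2, and 6 without J82 CD44 Low replicate 3 or RT-112 CD44 Low replicate 2. It was 5, with 1 of them higher, when the 4 groups compared were fitted alone.

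Against the parental cells, CD44v6 differed little by the test. In J82 KIF20A alone fell (−0.48 ± 0.10, adjusted p = 0.0275), where 2.6% of all genes were called, and its call was lost in 4 of 6 fits that left out a library (adjusted p up to 0.127) and with only the groups compared. Without J82 CD44v6 replicate 3 the count was 8. There 30 of the 52 had CD44v6 libraries entirely below the parental ones (14% of all genes). In RT-112 UBE2C alone rose (0.46 ± 0.09, adjusted p = 0.0399), where 0.614% of genes were called, and the call was lost in each of 6 fits that left out a library. CD44v6 and CD44 High gave no called member in either line with edgeR, as for 0% of all genes. An unadjusted p under 0.05 in edgeR was found for 30 members in J82 and 1 in RT-112. The share of all genes under that unadjusted limit was not computed. DESeq2 called 9 members lower in J82 CD44v6, against 0.138% of all genes, and 0 in RT-112 (0.0128% of all genes). The median difference was −0.31 in J82 and −0.04 in RT-112. CENPA, for example, read 27.3, 23.3 and 27.4 CPM in J82 CD44v6 and 58.0, 53.9 and 48.3 in RT-112 CD44v6, KIF23 248, 241 and 308 and 495, 442 and 345, and INCENP 203, 188 and 207 and 334, 305 and 275. SPC25 read 29.3, 26.1 and 34.8 and 55.0, 55.2 and 53.2 CPM, NUSAP1 363, 287 and 424 and 551, 549 and 495, and BUB1B 162, 147 and 195 and 304, 284 and 257. In J82 these CD44v6 values lay below CD44 High in every library of CENPA and KIF23. CKS2 stood at 135, 91.0 and 178 and 126, 106 and 96.9 CPM, MAD2L1 at 87.0, 73.5 and 102 and 74.3, 72.1 and 68.9, and FOXM1 at 121, 175 and 140.3 and 108, 124 and 121. TOP2A stood at 936, 749 and 1001 and 1162, 961 and 800.1 CPM and KIF11 at 116, 101 and 116 and 225, 184 and 146. In J82, CD44v6 lay below CD44 High without overlap for 27 members (6.25% of all genes).

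**Figure D4:**
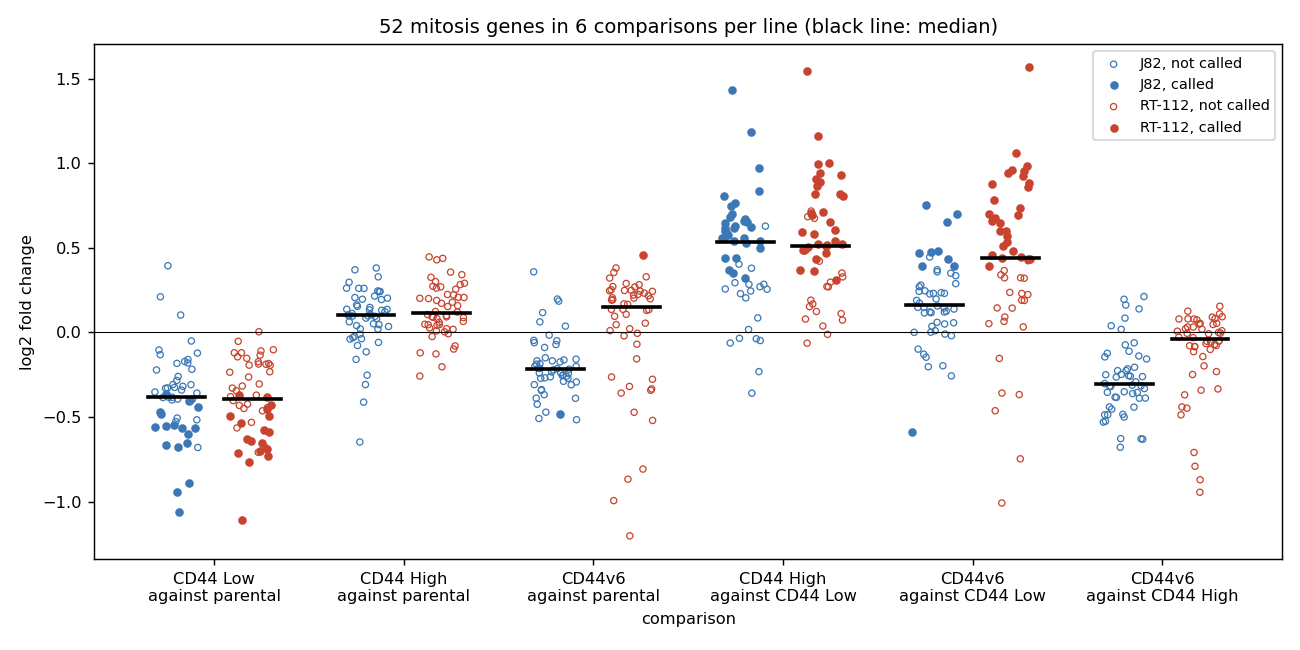
Log2 fold change of each of the 52 genes (points, filled where called) in the 6 comparisons of each line, with the median (bar). The medians of CD44 Low against parental lie near −0.4 and those of CD44 High against CD44 Low near 0.5 in both lines, and CD44v6 against CD44 Low is higher in RT-112 (0.44) than in J82 (0.16).

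The members with long coding sequences and low GC content stood apart from the rest in some libraries. CENPE, CENPF, ASPM, KIF14 and TOP2A have coding lengths above 4000 bases and a GC content below 42% (GENCODE 29). CENPF read 1461, 1526 and 1562 CPM in the RT-112 parental libraries, 1399, 1174 and 1496 in CD44 Low, 1199, 361 and 2216 in CD44 High and 813, 698 and 527 in CD44v6. KIF14, a cytokinesis motor, read 85.3, 83.6 and 93.6, 79.4, 75.4 and 92.5, 86.3, 27.5 and 147 and 69.0, 47.7 and 31.4 CPM in the same order of groups. ASPM, a spindle-pole protein, read 249.8, 262 and 291, 216, 169 and 218, 251, 90.3 and 403 and 178, 162 and 133 CPM. For each of these 3 genes CD44 High replicate 2 was the lowest and replicate 3 the highest of the 12 RT-112 libraries, and all CD44v6 libraries were below all parental ones. The SEs of the CD44 High difference from CD44 Low were 0.42, 0.42 and 0.36 for them in RT-112, and 0.38 for CENPE, against 0.09 for UBE2C.

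In 4 RT-112 libraries the median of all tested genes of this kind was low as well, though less so than that of the members. In RT-112 CD44 High replicate 2 the 5 members had a median of −1.62 against the parental mean, and the 223 tested genes of that length and GC content had −0.90. In RT-112 CD44v6 the members' medians were −0.59, −0.87 and −1.22 and those of the 223 genes −0.38, −0.58 and −0.77. The 15 members above 50% GC stood at 0.22 to 0.32 in these 4 libraries. In J82 the 238 tested genes of this kind did not always go with the 5 members. The genes had a median of 0.27 and the members −0.19 in J82 CD44 Low replicate 1. In J82 CD44 High replicate 2 the genes had −0.20 and the members −0.55. Across the 52 genes, the change of CD44v6 from parental cells in RT-112 went with GC content at a Spearman rho of 0.74 and a Pearson r of 0.63. This is a description across genes that share libraries, with n = 52. In J82 the rho was 0.14. For CD44 High the RT-112 rho was 0.68 against parental cells and 0.49 against CD44 Low, and in J82 it was 0.26 and 0.02. In CD44 High against CD44 Low, the long, low-GC members, the high-GC members and the others had medians of 0.02, 0.56 and 0.54 in J82 and 0.33, 0.82 and 0.48 in RT-112. In CD44 Low against parental cells, rho was 0.24 in J82 and −0.23 in RT-112, and the long, low-GC members, the high-GC members and the others had medians of −0.39, −0.35 and −0.39 in J82 and −0.45, −0.59 and −0.34 in RT-112. The part of GC content or coding length in the members' differences was not tested.

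With an offset per library fitted to GC content and coding length, an alternative added after seeing the data, the counts that lead this account were 40 higher in J82 and 39 in RT-112 for CD44 High against CD44 Low, and 28 and 26 lower for CD44 Low against parental cells. In RT-112, CENPE, ASPM, TTK, KIF11, KIF18A, CKAP2, ANLN and TOP2A were then called higher in CD44 High, and CIT (0.39, adjusted p = 0.0681) no longer was. CENPF and KIF14 were still not called there. CD44v6 against CD44 Low in RT-112 gave 40 higher. Without RT-112 CD44 High replicate 2, 39 members rose in CD44 High against CD44 Low in RT-112, and 9 were called lower in CD44v6 than in CD44 High. The shares of all genes called in these fits are not given here, so these counts are not set against them.

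**Figure D5:**
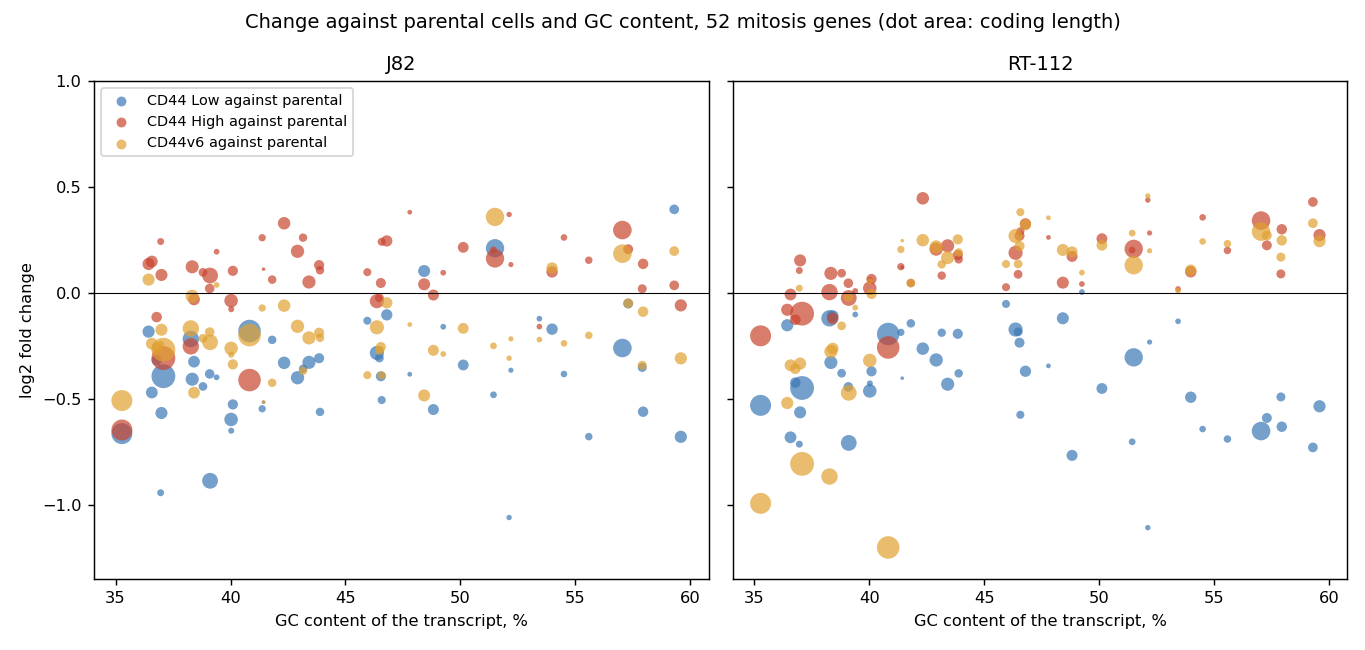
Log2 fold change against parental cells (vertical axis) by GC content of the transcript (horizontal axis, percent) for the 52 genes in J82 and RT-112, with dot area by coding length. In RT-112 the long, low-GC genes lie lowest in CD44v6, CENPF at −1.20. The CD44 Low changes are negative for 51 of the 52 genes in RT-112 and for 49 in J82.

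The parental lines differed from each other in 29 of the 52, 8 higher in J82 and 21 higher in RT-112, beside 62% of all genes called (31% in each direction). RT-112 was highest over J82 for CDK1 (176, 178 and 203 CPM against 86.8, 95.0 and 88.9, log2 difference J82 minus RT-112 −1.04 ± 0.15), KIF20A (−0.98 ± 0.12) and KIF11 (−0.95 ± 0.18). KIF20A was at 288, 299 and 309 CPM in RT-112 and 151, 155 and 149 CPM in J82. J82 was highest over RT-112 for CKS2 (1.10 ± 0.19), AURKB (1.09 ± 0.12) and CDC25B (0.98 ± 0.16). None of these 6 overlapped between the parental lines. With 3 libraries of 1 line on each side, a difference between lines and one between their cultures cannot be told apart.

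Other genes of the same machinery were taken from lists of 114 further genes. In CD44 High against CD44 Low, 24 of 114 rose and 7 fell in J82, and 32 of 111 tested rose and 1 fell in RT-112, with medians of 0.17 and 0.15. Of all genes 8.83% rose and 6.9% fell in J82, and 9.01% rose and 7.02% fell in RT-112. 14 rose and 1 fell in both lines. CDCA5, sororin, which stabilises cohesion, rose by 0.84 ± 0.10 and 0.94 ± 0.09, from 55.9, 59.0 and 69.6 CPM in CD44 Low to 111, 112 and 106 in J82 and from 39.6, 37.7 and 37.0 to 67.8, 80.2 and 66.4 in RT-112. NCAPH, a condensin subunit, rose by 0.69 and 0.64, and condensin and cohesin genes as a list gave 5 and 6 of 17 higher. Of 30 other centromere and kinetochore genes 7 rose in J82 and 11 in RT-112, among them CENPI (0.76 and 0.75), SKA3 (0.67 and 0.66) and SKA1 (0.63 and 0.56), the latter being parts of a complex that couples kinetochores to microtubules. Of 17 other genes of the anaphase-promoting complex 2 rose in J82, a share near that of all genes, and 4 in RT-112. Of 19 regulators of the MuvB, DREAM and RB families 4 rose in J82 and 7 in RT-112, E2F7, a repressor of the E2F family, in both (0.64 and 0.64). MYBL2, the gene of B-MYB, rose in RT-112 (0.75 ± 0.11) and was 0.39 ± 0.14 in J82, not called.

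The genes listed for S phase, the neighbouring part of the cell cycle, moved in both directions. The list also held CCNA2 and MKI67, which are not confined to S phase. Of 19, 5 rose and 2 fell in J82 and 4 rose and 1 fell in RT-112, with medians of −0.02 and 0.16 beside 0.53 and 0.51 for the 52 mitosis genes. The shares of all genes were 8.83% higher and 6.9% lower in J82, and 9.01% and 7.02% in RT-112. The ones that rose in both lines were RRM2 (0.75 and 0.74) and RRM1 (0.60 and 0.34), the subunits of ribonucleotide reductase, GINS1 (0.59 and 0.68), a subunit of the replicative helicase, and CCNA2 (0.65 and 0.48), cyclin A. MCM6, a core subunit of the same helicase, fell by 0.60 and 0.49. MKI67, the gene of the proliferation antigen Ki-67, was at −0.09 ± 0.30 and 0.56 ± 0.21, called in neither line. The difference between the lists was not tested.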

How the data were processed

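RNA was read in 24 libraries of bladder cancer cell lines. A single table of unnormalized gene counts was deposited, keyed by symbol. Per the submitters' processing notes, HISAT2, StringTie and the build GRCh37 were used; their roles and versions, and whether counting used strand, are not given in the sources used here. Reads of overlapping genes or pseudogenes may be shared.

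Counts were analysed with edgeR 4.0.16 in R 4.3.3 (filterByExpr, TMM scaling, quasi-likelihood F-tests, two-sided, Benjamini-Hochberg adjustment over all genes tested, threshold 0.05). The 12 libraries of each line were fitted together on group alone, giving 6 comparisons a line. A fit of all 24 libraries gave 3 tests of J82 minus RT-112 and the parental comparison. Common biological coefficients of variation were 0.183 in J82 and 0.152 in RT-112. The scripts were tested on simulated data. The labels number the replicates and do not say what a number marks. Replicate numbers passed the check for pairing (correlation of deviations above 0.1 for every number) only for J82 CD44v6 against CD44 High, from the data and not the labels (0.11, 0.11 and 0.25). The alternative settings were another scaling (median-of-ratios or upper quartile), no filter, DESeq2 1.42.0, a replicate block, other sets of libraries, leaving out each library, and, added later, an offset for GC content and coding length (GENCODE 29), which covered 94.9% of genes tested in J82 and 95.4% in RT-112.

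Genes given in full were those that passed in both lines in 1 direction (at most 10 per comparison), the most changed called gene per role and line, those differing between lines (at most 10) and the 3 highest called in each parental line; KIF2C and the members beyond these were named after their values were seen. The 52 members and the lists were chosen with earlier results of these data known. Promoters are from RefSeq.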

Additional observations from a re-analysis of the deposited data

Results flagged for a closer look

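Differences between the lines were tested for each of the 52 genes as J82 minus RT-112, and 15 results in 13 genes passed the threshold. By test, 1 of 52 did so for CD44 Low against parental cells (1.06% of all genes), 3 for CD44 High against CD44 Low, a smaller share than the 10.7% of all genes, and 11, each lower in J82, for CD44v6 against CD44 Low (2.96% of all genes lower). CDC25B did so in all 3 tests: 1.09 ± 0.22 for CD44 Low against parental cells, −1.49 ± 0.22 for CD44 High against CD44 Low and −1.27 ± 0.22 for CD44v6 against CD44 Low. In CD44 High against CD44 Low the change was larger in J82 for BUB3 (0.53 ± 0.13) and MAD2L1 (0.51 ± 0.14).

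In CD44v6 against CD44 Low the change was lower in J82 for KIF20A (−0.92 ± 0.17), PLK1 (−0.87 ± 0.20), AURKA (−0.85 ± 0.23), UBE2C (−0.83 ± 0.18), CDCA8 (−0.77 ± 0.13), CDCA3 (−0.75 ± 0.20), HJURP (−0.69 ± 0.19), CDC20 (−0.66 ± 0.15), TPX2 (−0.65 ± 0.11) and KIF2C (−0.52 ± 0.15). Of the 10 genes in the preceding sentence, PLK1, UBE2C, CDCA8, TPX2 and KIF20A were called in every fit that left out 1 library. KIF2C lost the call in 9 of 12 such fits, AURKA in 7, CDCA3 and HJURP in 6 each and CDC20 in 3. Over the 52 genes these differences went with GC content at a Spearman rho of −0.78, and with the offset for GC content and coding length 13 members were called lower in J82. The share of all genes called in that fit is not given here, and the part of GC content in these differences was not tested.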

How the results depend on the processing

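The counts of called members for CD44 High against CD44 Low stayed within 1.5 times of 32 under every alternative run, at 24 to 33 in J82 and 25 to 39 in RT-112 when 1 library was left out. CD44v6 against CD44 Low in RT-112 was 26 to 29, and the parental comparison 22 to 25, over the same fits. The other ranges with 1 library left out were 6 to 21 for J82 CD44 Low against parental, 0 to 8 for J82 CD44v6 against parental, 5 to 15 for J82 CD44v6 against CD44 Low, 7 to 16 for RT-112 CD44 Low against parental, 0 to 1 for RT-112 CD44 High against parental, 0 in each such fit for RT-112 CD44v6 against parental and 0 to 9 for RT-112 CD44v6 against CD44 High. For J82 minus RT-112 they were 0 to 1 (CD44 Low against parental), 2 to 5 (CD44 High against CD44 Low; without J82 CD44 Low replicate 2 the split was 2 higher and 3 lower, against 2 and 1) and 6 to 15 (CD44v6 against CD44 Low). With DESeq2, J82 CD44 Low, CD44 High and CD44v6 against parental gave 28, 1 and 7, J82 CD44v6 against CD44 High 9, and RT-112 CD44 High and CD44v6 against parental 4 and 5. With the GC and coding-length offset these comparisons gave 28, 1 and 5 against parental in J82 and 4 for RT-112 CD44 High against parental. With only the groups compared, J82 CD44 High and CD44v6 against parental gave 7 and 0, J82 CD44v6 against CD44 Low 3, RT-112 CD44 Low and CD44v6 against parental 29 and 13, and the CD44v6 difference between lines 5. Without the filter the last gave 7 and RT-112 CD44v6 against parental 0. RT-112 CD44v6 against parental was 2 with median-of-ratios factors and 2 with upper-quartile scaling, which gave 1 for RT-112 CD44 High against parental. The causes were not tested, and the shares of all genes called in these fits are not given beside these counts.

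With the replicate block, J82 CD44 High and CD44v6 against parental gave 1 and 2 and RT-112 CD44v6 against parental 0, and J82 CD44v6 against CD44 High, where the numbers passed the pairing check, stayed at 0. Elsewhere the samples share a number only, and the block gave 27 lower for J82 CD44 Low against parental, 35 higher in J82 and 32 in RT-112 for CD44 High against CD44 Low. In J82, all 3 replicates correlated best with their own number for CD44 Low and CD44 High against parental. Of the results for single named genes 1228 kept their direction and side of the threshold, 124 missed the threshold and 0 reversed. The parental call of BUB1 changed sign with the offset for GC content and coding length (−0.19). The lowest count of a member in a library was 204.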

Other observations

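Among 12 genes of p53 signalling and cell-cycle exit, of which 9 were tested in RT-112, CDKN1A, the gene of the CDK inhibitor p21, rose in J82 CD44 High against CD44 Low (1.22 ± 0.22, adjusted p = 0.00236) alongside the mitosis genes. It read 8.25, 11.2 and 12.8 CPM in J82 CD44 Low and 21.9, 31.3 and 21.6 in CD44 High, and 148, 108 and 103 and 60.5, 103 and 79.0 CPM in RT-112, where it was not called (−0.53 ± 0.17). CDKN2B, the gene of the inhibitor p15, fell in J82 by 1.71 and CDKN2A, the gene of p16, by 0.32.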
